A study of Homo sapiens with 6 samples.

Results

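The 39 genes described here serve the early secretory pathway, from the entry of a protein into the endoplasmic reticulum (ER) to its sugar attachment, folding, disposal or export. They were taken by name from the table of counts, where each name stood on 1 row, and make up 39 of its 48162 genes. They were placed in 6 steps: the translocon (10 genes), signal peptidase (3), oligosaccharyltransferase (7), folding (6), degradation (6) and cargo export (7). All 39 passed the filter on low counts, with 159 to 18212 counts per library. No measured value entered the choice by rule, although earlier results of these data were known when the genes were listed.

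The libraries came from HEK293, an established human embryonic kidney line. All cells received Flag-tagged Ago2, the protein that holds the microRNA in the silencing complex. They received it together with a mimic of microRNA-219 (miR-219) in 3 libraries and with a negative control mimic in 3 libraries, and RNA that came down with the tag was sequenced. The dates of collection were 22 August, 5 September and 18 September, with 1 library of each group on each. The comparison asks which transcripts are held in the silencing complex when miR-219 is raised. Input RNA was not used here, so a level reflects both the amount of a transcript in the cells and the share of it on Ago2, and fewer cells holding a transcript cannot be told apart from less of it per cell. The Ago2 of these precipitates was transfected and not the cells' own, and the labels do not say whether the dates were separate cultures, so the p-values measure spread between libraries that may be technical.

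Proteins bound for secretion or for membranes are threaded through the Sec61 channel while a signal peptide is cut off and N-linked sugars are attached. Chaperones and disulfide isomerases of the ER lumen then fold them, cargo receptors load folded proteins into vesicles, and misfolded ones are marked, pulled back to the cytosol and degraded. Many of these genes are induced together in the unfolded protein response, and the pathway is busiest in secretory cells such as plasma cells.

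A microRNA pairs with transcripts mainly through its seed, bases 2 to 8, so the mature forms of miR-219 are shown for the seeds that a mimic could bring. The labels do not say which form the mimic carried. RefSeq (GRCh38.p14) gives the following mature RNAs, 5′ to 3′, with the seed in capitals.
hsa-miR-219a-5p: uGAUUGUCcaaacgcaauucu
hsa-miR-219a-1-3p: aGAGUUGAgucuggacgucccg
hsa-miR-219a-2-3p: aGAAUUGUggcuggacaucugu
hsa-miR-219b-5p: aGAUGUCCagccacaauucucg
The 4 forms have 4 different seeds. The 5p form lies at chr6:33207855-33207875 on the plus strand and, from a second copy, at chr9:128392676-128392696 on the minus strand. The target letters for its seed are GACAATC, and matches in the members' transcripts were not analysed here.

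The promoters are shown for the elements through which the unfolded protein response acts on this family. Windows from 250 bases before to 50 bases after the start were matched in RefSeq for 33 of the 39 genes. TRAM1, SPCS1, RPN1, STT3B, DERL1 and KDELR2 were not matched. They were searched on both strands for the ER stress response element, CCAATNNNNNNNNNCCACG, and the unfolded protein response element, TGACGTGG. The last letters of the first, CCACG, also open the reverse complement of the second, so matches of both could overlap. The first was found in 1 member, HSP90B1 (3.03% of the 33), and in 27 of 35116 promoters of the table (0.0769%). The second was found in 1 member, SEC62 (3.03%), and in 256 of the 35116 (0.729%). Each share of the members rests on 1 gene. For members 1 promoter per gene was taken, whereas the 35116 were counted without joining promoters by gene. The shares are therefore not alike in unit, and enrichment was not tested. The matches are given with the bases around them, read along the plus strand, with the match in capitals.
HSP90B1, chr12:103930201-103930249: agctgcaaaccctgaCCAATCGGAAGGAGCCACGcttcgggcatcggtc
HSP90B1, chr12:103930306-103930354: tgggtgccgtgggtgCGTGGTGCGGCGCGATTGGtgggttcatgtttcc
SEC62, chr3:169966775-169966806: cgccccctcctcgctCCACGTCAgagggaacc
The first HSP90B1 match begins 194 bases before the start, and the second, on the reverse strand, begins 89 bases before it. HSP90B1 had a log2 fold change of −0.06 and SEC62 one of −0.11. A match of letters is a description of the window and not of binding.

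Depth ran from 20233819 to 34408699 counts per library. Between 0.555 and 0.693% of a library's counts fell on the 39 genes. The transfected AGO2 took 10.6 to 18.0% of the counts and mitochondrial genes 5.66 to 13.3%. The 6 HEK293 markers all had counts, at a sum of 348 to 457 counts per 1000000 of the library (CPM). Plasma cell markers, checked because such cells are rich in ER transcripts, had a count for 9 of 11, with IGKC and FCRL5 at 0. By date they summed to 0.54, 9.43 and 11.6 CPM in the mimic libraries and 26.5, 0.262 and 26.4 CPM in the control libraries. Among them, mimic against control, IGHA1 reached 0, 146 and 135 counts against 422, 0 and 257. IGHA2 reached 0, 90 and 77 against 154, 0 and 186. The 0 of IGKC and FCRL5 therefore did not show that plasma cell transcripts were absent. The 14 intestinal markers, all with a count, summed to 9.46, 15.8 and 35.9 CPM against 38.1, 14.4 and 42.7 CPM. CDX2 was part of this sum in every library, with 285, 242 and 354 counts against 296, 451 and 459. PIGR varied more, with 3, 51 and 112 counts against 277, 1 and 130, and FABP1 had 0, 45 and 51 against 85, 0 and 67. The summed level of the erythroid markers reached 688 CPM in 1 library, the control of 5 September, while the other sums ran from 0.127 to 0.294 CPM. The part of these transcripts in the values below was not tested.

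The 39 genes stood at very different levels, compared here as normalised CPM per kilobase of gene length. KDELR1, a receptor that returns escaped ER proteins from the Golgi, was first at 229.8, followed by the disulfide isomerase P4HB at 186 and the chaperone HSP90B1, also known as GRP94, at 175. The oligosaccharyltransferase subunit DDOST (143) and the lectin LMAN2 (123) came next. EDEM1, a mannosidase-like protein that marks misfolded glycoproteins, was last at 8.24, after SEL1L at 9.39 and SYVN1 at 10.04. By step, the median level per kilobase was 86.2 for folding, 73.06 for oligosaccharyltransferase, 67.65 for cargo export, 25.25 for signal peptidase, 24.12 for the translocon and 10.64 for degradation. SEC61A1 (55.3) and SEC61B (55.2), which follow each other in the order, overlapped between libraries.

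**Figure D1:**
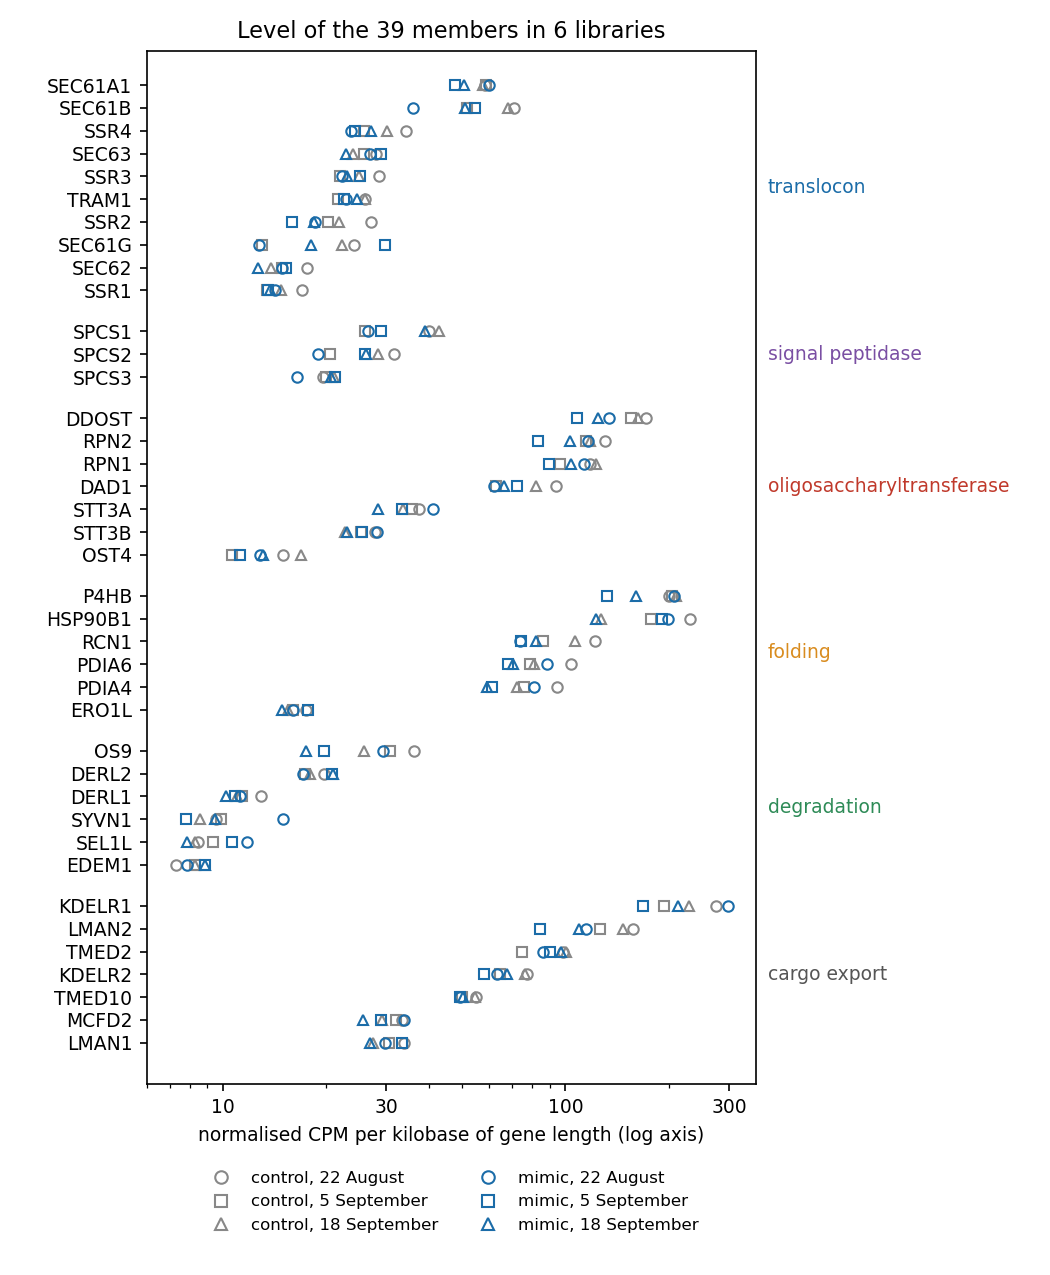
Level of each of the 39 genes, as normalised CPM per kilobase of gene length on a log axis, with 1 marker per library (colour for mimic or control, shape for date) and the genes grouped by step. KDELR1 (229.8 on average), P4HB and HSP90B1 lie to the right, and the degradation genes, with a median of 10.64, to the left.

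Pairs of genes that work together were compared within each library. STT3A, the catalytic subunit that acts during translocation, stood at 1.23 to 1.48 times the level per kilobase of STT3B, which serves sites that were skipped, over the 6 libraries. KDELR1 stood at 2.91 to 4.7 times the level of its relative KDELR2. LMAN1, the cargo receptor also called ERGIC-53, and its partner MCFD2 were near each other, at ratios of 0.88 to 1.16 that lay above 1 in 3 libraries and below it in 3. TMED10 stood at 0.515 to 0.669 times TMED2, both p24 proteins of transport vesicles. SEC61G, a small channel subunit, ranged more, from 0.213 to 0.626 times SEC61A1. In each of these pairs the mimic and control libraries overlapped.

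With the mimic, 31 of the 39 genes had a fold change below 0, and the median over the 39 was −0.125 on the log2 scale. Over the 16233 genes tested the median was 0.002, with 49.7% below 0. The median over the 39 was −0.0552 without the control library of 22 August and −0.188 without that of 5 September. LMAN2, DDOST, RCN1, SSR2, OS9 and SEC61B had the lowest p-values and lay at −0.48 to −0.39, while SEL1L and SYVN1 of the degradation step had the highest fold changes. None of these differences passed the threshold. In edgeR's quasi-likelihood F test with Benjamini-Hochberg adjustment over all genes, 0 of 39 had an adjusted p under 0.05 (0.0% of all genes), and the adjusted p was 0.999 for each. The date as a block gave 0 (0.0% of all genes), with 0.824 as the lowest adjusted p of a member. DESeq2 called 0 members, beside 5 of the 16223 genes with an adjusted p (0.0308%).

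Read without adjustment, 6 of the 39 (15.4%) had a p under 0.05 and all 6 were lower with the mimic. The same held for 3.01% of all genes in either direction and for 1.26% in the lower and 1.74% in the higher direction. The count of 6 was 2 without the mimic library of 5 September (0.765% of all genes lower) or the control library of 22 August (0.542%), and 9 without the control library of 5 September (3.68%). With the date as a block there were 7, against 2.73% of all genes. In 4 members (10.3%) every mimic library lay below every control library, against 3.84% of all genes, and in 0 did every mimic library lie above, against 4.22%. On all 3 dates 13 members (33.3%) were lower with the mimic, against 14.4% of all genes, and 2 were higher, against 15.6%. These shares describe genes that are often transcribed together, so they are not 39 separate observations. Standard errors ran from 0.128 to 0.287, and all 39 intervals at the 95% level lay inside a 2-fold change either way.

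**Figure D2:**
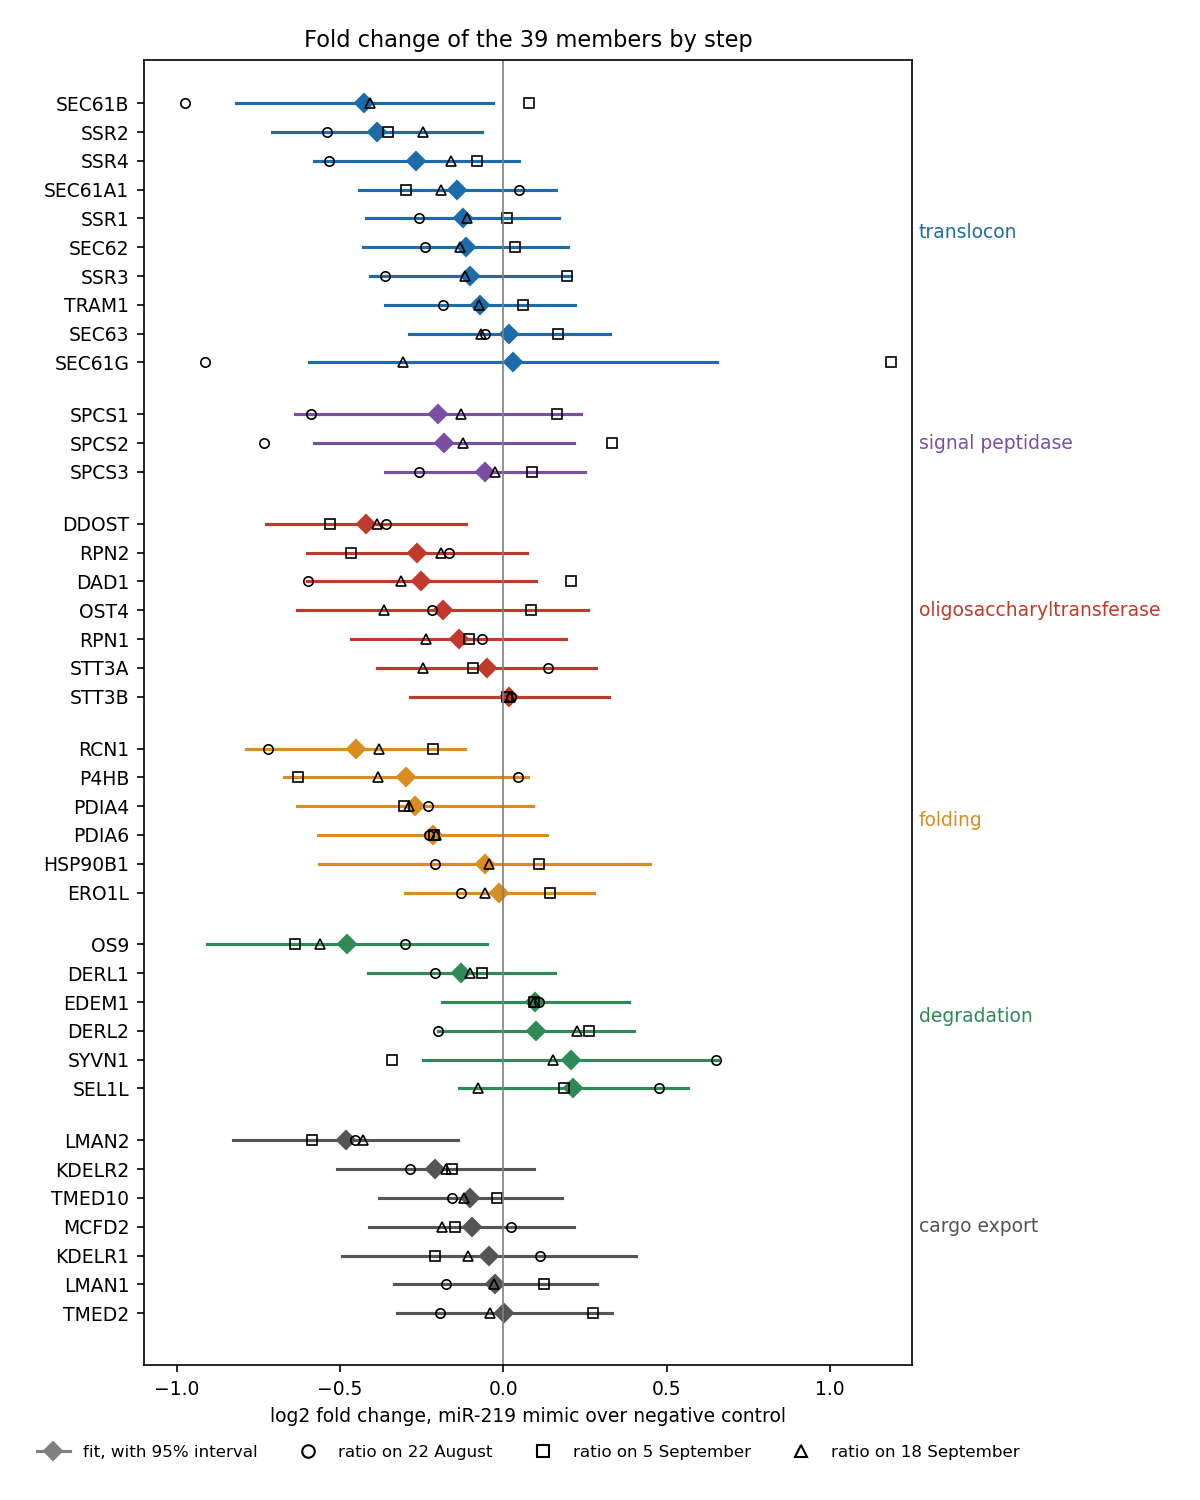
Log2 fold change of mimic over control for the 39 genes by step, as the fitted value with its 95% interval (diamond and bar) and as the ratio on each date (open symbols). The intervals of 6 genes lie below 0, none lies above 0, and SEC61G has the widest spread of dates.

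Dates differed in these ratios. The median log2 ratio over the 39 was −0.21 on 22 August, 0.01 on 5 September and −0.13 on 18 September, with 30, 19 and 35 of the 39 below 0. Over all genes the medians were 0.02, 0.00 and −0.01. The folding and cargo export genes had a median below 0 on each date, and so did oligosaccharyltransferase. The translocon and signal peptidase medians lay above 0 on 5 September. The degradation medians were −0.05, 0.01 and 0.01. Each date has 1 library per group, so no test of a date against another in its response to the mimic was possible.

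**Figure D3:**
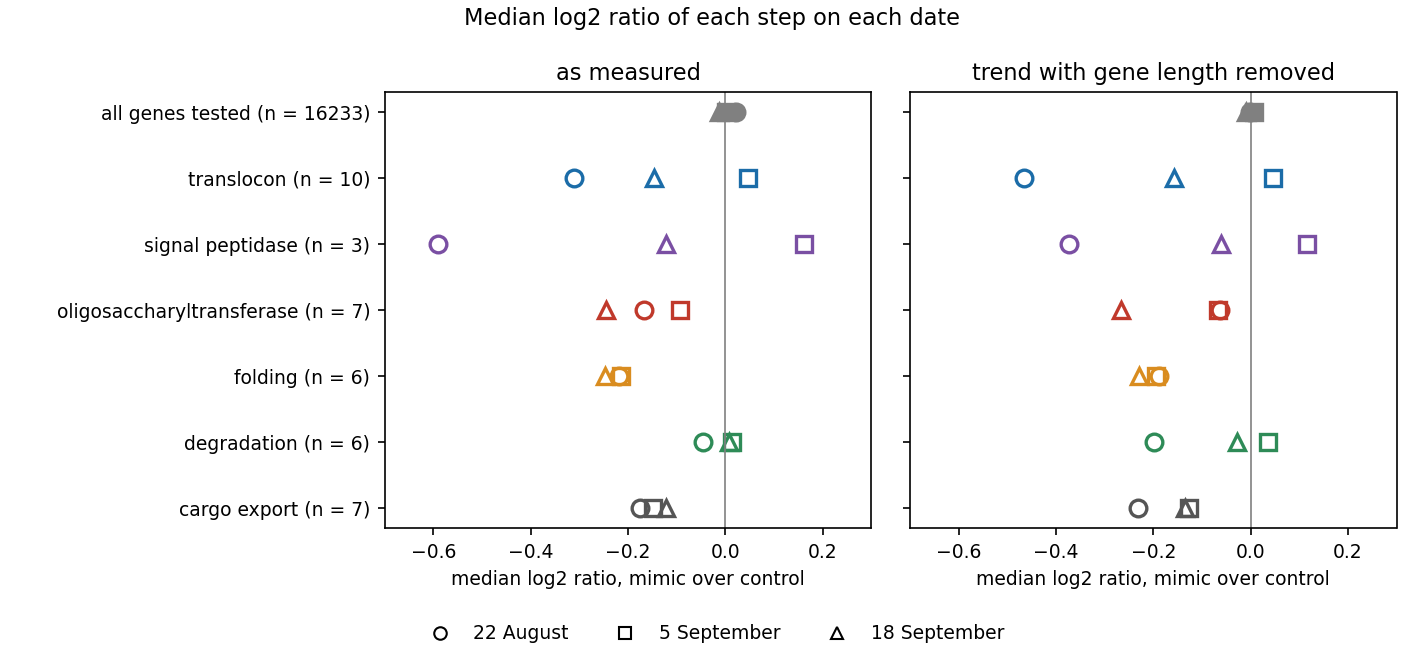
Median log2 ratio of mimic to control for each step on each date, with all genes tested above, as measured (left) and after a trend with gene length was removed (right). The folding symbols lie together at −0.22, −0.21 and −0.25, whereas signal peptidase runs from −0.59 to 0.16.

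The translocon genes form the channel and its helpers, and 8 of 10 had a fold change below 0, with a median of −0.12 (−0.0294 without the control library of 22 August). Their date medians were −0.31, 0.05 and −0.15. SSR2 (ENSG00000163479, hg19 chr1:155978839-155990750) encodes the beta subunit of the translocon-associated protein complex, which helps some signal peptides open the channel. The mimic libraries held it at 95.8, 82.1 and 95.2 CPM and the control libraries at 139, 105 and 113 CPM, listed here and below by date. Every mimic library lay below every control library. The means were 91.0 ± 7.72 and 119 ± 18.1 CPM (SD, n = 3 each), a log2 fold change of −0.39 with a 95% interval of −0.71 to −0.07. Its unadjusted p was under 0.05 with and without the date as a block, and its adjusted p was 0.999 (edgeR).

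SEC61B (ENSG00000106803, hg19 chr9:101984346-101992897), the beta subunit of the channel, had 24.7, 37.4 and 35.04 CPM in the mimic libraries and 48.5, 35.4 and 46.5 CPM in the control libraries. The groups overlapped, because on 5 September the mimic library was slightly the higher. The log2 fold change was −0.43 ± 0.181 (SE), and its unadjusted p was under 0.05 only without the block (edgeR, adjusted p = 0.999). SEC61A1 (ENSG00000058262, hg19 chr3:127770484-127790526), which forms the pore itself, measured 218, 173 and 183 CPM against 211, 212 and 209 CPM. The mimic libraries lay on both sides of the control libraries, which differed little, and the log2 fold change was −0.14 with an interval of −0.44 to 0.16. Part of its span is shared with RUVBL1, whose counts equal 52.4% of those of SEC61A1, and the strand setting of the counting is not given in the sources used here.

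SEC61G had 15.7, 36.5 and 22.1 CPM in the mimic libraries and 29.6, 16.0 and 27.4 CPM in the control libraries. Its mimic library was the higher of the pair on 5 September and the lower on the other dates, so its fold change of 0.03 has a wide interval, −0.59 to 0.65. The other subunits of the associated complex, SSR1, SSR3 and SSR4, had log2 fold changes of −0.13, −0.10 and −0.27, and of these SSR4 was lower on all 3 dates. SSR4 overlaps IDH3G, whose counts equal 45.7% of its own. SEC62 and SEC63, which serve entry after translation, stood at −0.11 and 0.02, and TRAM1, a channel neighbour that contacts nascent chains, at −0.07.

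Signal peptidase cuts the signal peptide, and the ratios of its 3 members had the same sign as each other on every date. SPCS2 (ENSG00000118363, hg19 chr11:74660292-74690076) had 51.3, 70.2 and 70.6 CPM in the mimic libraries and 85.4, 55.8 and 76.9 CPM in the control libraries. The mimic library was above the control on 5 September and below it on the other dates, with log2 ratios of −0.73, 0.33 and −0.12. The fold change was −0.18 with an interval of −0.58 to 0.22. SPCS1 (ENSG00000114902, hg19 chr3:52738971-52742182) measured 33.9, 37.0 and 49.7 CPM against 51.0, 33.0 and 54.4 CPM, with ratios of −0.59, 0.16 and −0.13. SPCS1 shares its span with GLT8D1, whose counts equal 50.5% of its own. SPCS3 had the same pattern with smaller ratios, −0.26, 0.09 and −0.03.

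Oligosaccharyltransferase transfers the sugar tree to asparagine, and 6 of its 7 genes had a fold change below 0, with a median of −0.187. Its date medians were −0.17, −0.09 and −0.25. DDOST (ENSG00000244038, hg19 chr1:20978270-20988000) encodes the non-catalytic subunit OST48. It had 278, 224 and 259 CPM in the mimic libraries and 357, 324 and 339 CPM in the control libraries. The groups did not overlap, and the mimic mean of 254 ± 27.3 CPM was 25.3% below the control mean of 340 ± 16.5 CPM (n = 3 each). The log2 fold change was −0.42, with an interval of −0.73 to −0.11, and its unadjusted p was under 0.05 in both fits (edgeR, adjusted p = 0.999).

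RPN2 (ENSG00000118705, hg19 chr20:35806813-35870022), a structural subunit, measured 293, 209 and 260 CPM against 328, 289 and 296 CPM. It was lower with the mimic on each date, but the mimic library of 22 August lay above the control library of 5 September. The log2 fold change was −0.26 ± 0.155 (SE), and its unadjusted p was under 0.05 only with the block (edgeR, adjusted p = 0.999). Its partner RPN1 was also lower on each date, at a fold change of −0.14. DAD1, a small subunit needed for the stability of the complex, stood at −0.25 and the very small OST4 at −0.19, and both had a ratio above 0 on 5 September. OST4, which had the fewest counts of the 39, overlaps AGBL5, which had 16713 counts against its own 1160. The catalytic subunits were close to 0, STT3A at −0.05 and STT3B at 0.02. STT3A overlaps CHEK1, whose counts equal 40.5% of its own.

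All 6 folding genes had a fold change below 0, with a median of −0.24 and date medians of −0.22, −0.21 and −0.25. HSP90B1 (−0.06) and ERO1L (−0.01) lay near 0 and changed sign under some alternatives. The median was −0.111 without the control library of 22 August and −0.384 without the mimic library of that date. RCN1 (ENSG00000049449, hg19 chr11:31833939-32127301) encodes reticulocalbin, a calcium-binding protein of the lumen. It had 196, 196 and 217 CPM in the mimic libraries and 323, 228 and 283 CPM in the control libraries. The groups did not overlap, and the mimic mean of 203 ± 12.3 CPM was 26.9% below the control mean of 278 ± 47.6 CPM. The log2 fold change was −0.45, with an interval of −0.79 to −0.12, again with an unadjusted p under 0.05 in both fits (edgeR, adjusted p = 0.999). The annotated span of RCN1 holds PAX6, whose counts equal 9.17% of those of RCN1.

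P4HB (ENSG00000185624, hg19 chr17:79801035-79818570), the best-known disulfide isomerase, had 541, 345 and 418 CPM in the mimic libraries and 524, 534 and 545 CPM in the control libraries. The control libraries were close together, and the mimic libraries of 5 September and 18 September lay below them while that of 22 August lay among them. The log2 fold change was −0.30, with an interval of −0.67 to 0.07. PDIA4 (ENSG00000155660, hg19 chr7:148700154-148725733), another isomerase, measured 234, 178 and 172 CPM against 275, 219.1 and 210 CPM. It was lower on each date by nearly the same ratio, −0.23, −0.30 and −0.29, although the groups overlapped (log2 fold change −0.27, edgeR adjusted p = 0.999). Its unadjusted p, like that of RPN2, was under 0.05 only with the block. PDIA6 had ratios of −0.23, −0.21 and −0.21. ERO1L, the oxidase that recharges the isomerases, stood at −0.01.

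**Figure D4:**
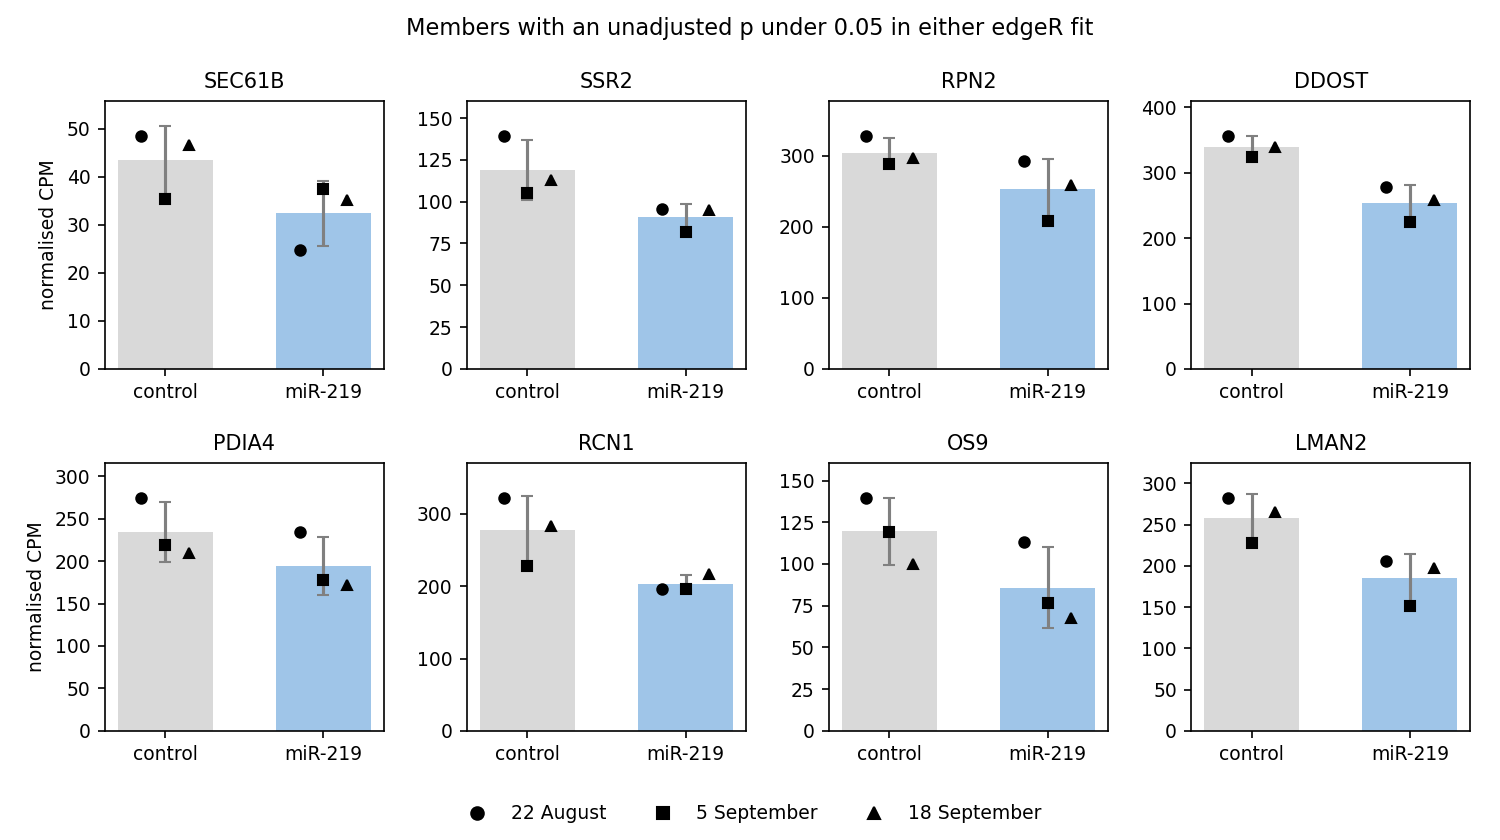
Normalised CPM of the 8 members with an unadjusted p under 0.05 with or without the date as a block, 1 point per library (shape for date), with bars for the mean and error bars for the SD of 3 libraries. In SSR2, DDOST, RCN1 and LMAN2 every mimic library lies below every control library, and in SEC61B, RPN2, PDIA4 and OS9 the groups overlap.

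The degradation step was mixed, with 2 of 6 genes below 0, 4 above and a median of 0.098. Its date medians were −0.05, 0.01 and 0.01, with 3 of the 6 ratios below 0 on each date. OS9 (ENSG00000135506, hg19 chr12:58087738-58115340) is a lectin that hands misfolded glycoproteins to the ligase complex. It had 113, 76.3 and 67.6 CPM in the mimic libraries and 140, 119 and 99.8 CPM in the control libraries. It was lower with the mimic on each date, and the groups overlapped only through the mimic library of 22 August, which exceeded the control library of 18 September. The mean was 28.2% lower and the log2 fold change −0.48, with an interval of −0.91 to −0.05 (edgeR, adjusted p = 0.999, with an unadjusted p under 0.05 in both fits).

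The partners of OS9 in that complex had fold changes above 0. SEL1L, the adaptor, stood at 0.21 and SYVN1, the ubiquitin ligase also called HRD1, at 0.21 as well. The log2 ratios of SEL1L by date were 0.48, 0.18 and −0.08, and its groups overlapped. With the trend with gene length removed, its fold change was 0.09. SYVN1 had 68.1, 35.4 and 43.1 CPM in the mimic libraries and 43.4, 44.9 and 38.8 CPM in the control libraries, so its value rests on the mimic library of 22 August. Without both libraries of that date its fold change was −0.09. SYVN1 also shares its span with MRPL49, which had 7969 counts against its own 7340. EDEM1 was slightly higher on each date, with a fold change of 0.10, or 0.02 with the trend with length removed. The derlins, which form the exit channel, stood at −0.13 for DERL1 and 0.10 for DERL2, and DERL2 shares its span with MIS12 (13870 counts against 12622). DERL1 overlaps WDR67, whose counts equal 24.3% of its own.

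Of the 7 cargo export genes 6 had a fold change below 0, with a median of −0.097 and date medians of −0.18, −0.15 and −0.12. LMAN2 (ENSG00000169223, hg19 chr5:176758563-176778853), also called VIP36, is a lectin that carries glycoproteins between the ER and the Golgi. It had 206, 151 and 197 CPM in the mimic libraries and 283, 227 and 266 CPM in the control libraries. The groups did not overlap, and the mimic mean of 185 ± 29.3 CPM was 28.4% below the control mean of 258 ± 28.4 CPM. The log2 fold change was −0.48, with an interval of −0.83 to −0.14. This was the lowest unadjusted p of the 39 in either fit (edgeR, adjusted p = 0.999).

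Its relative LMAN1 stood at −0.03. The ratio of LMAN1 to LMAN2 per kilobase was 0.26, 0.397 and 0.246 in mimic libraries against 0.214, 0.243 and 0.186 in control libraries. It was higher with the mimic on each date, which restates the lower LMAN2 and is not separate support. KDELR1 (ENSG00000105438, hg19 chr19:48885827-48894810) measured 474, 268 and 340 CPM against 439, 310 and 367 CPM. Its log2 ratios by date were 0.11, −0.21 and −0.11, so the mimic library was the higher only on 22 August. The fold change was −0.04 with an interval of −0.49 to 0.41. KDELR2 was lower on each date, at −0.21, and so was TMED10, at −0.10. MCFD2 stood at −0.10 and TMED2 at 0.00. KDELR2 overlaps DAGLB, whose counts equal 16.7% of its own, and MCFD2 overlaps TTC7A (14.1%).

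Dates were also compared with each other, with the mimic as a term in the model. At an adjusted p under 0.05, 0 of the 39 differed between dates (edgeR, 0.308% of all genes). Without adjustment 6 had a p under 0.05 (15.4%), against 13.2% of all genes, which is near the background. The 6 were HSP90B1, KDELR1, OS9, PDIA4, PDIA6 and LMAN2, named here after their values were seen. HSP90B1 (ENSG00000166598, hg19 chr12:104323885-104347423) had 605, 581 and 372 CPM in the mimic libraries and 699, 539 and 384 CPM in the control libraries. Both libraries of 18 September lay below the other 4 (edgeR, adjusted p = 0.224), and the fold change with the mimic was −0.06. OS9 had date means of 126, 97.6 and 83.7 CPM, and KDELR1 of 456, 289 and 353 CPM.

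**Figure D5:**
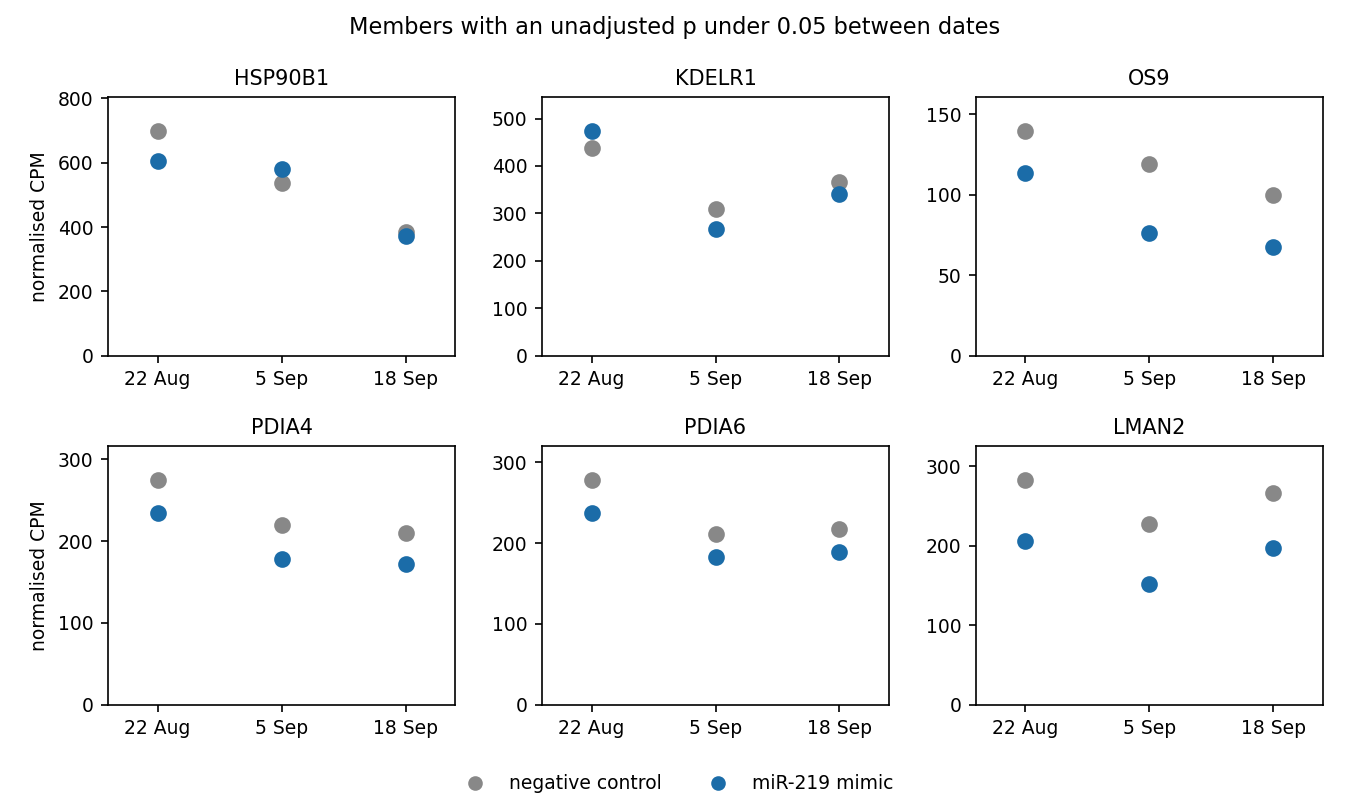
Normalised CPM of the 6 members with an unadjusted p under 0.05 between dates, 1 point per library, with mimic and control shown by colour. In HSP90B1, KDELR1, PDIA4 and PDIA6 both libraries of 22 August lie above both of 5 September, and HSP90B1 is lowest on 18 September at 372 and 384.

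Transcript length moved with the comparison. Over all genes the median fold change was −0.074 for those under 1500 bases, −0.042 from 1500 to 4000 and 0.068 above 4000, and on 22 August these medians were −0.25, −0.067 and 0.201. The 5 members under 1500 bases had log2 ratios with medians of −0.60, 0.16 and −0.31 by date. For all genes of that length the medians were −0.25, 0.10 and −0.07, with the same signs. The 18 members of 1500 to 4000 bases had a median fold change of −0.21, with 17 below 0 and 10 lower on all 3 dates (55.6%, against 18.9% of all genes of that length). The 16 longer ones had a median of −0.04. With the trend with length removed, the median over the 39 was −0.125, as before. The steps became −0.18 for the translocon, −0.11 for signal peptidase, −0.16 for oligosaccharyltransferase, −0.21 for folding, 0.05 for degradation and −0.12 for cargo export.

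Other genes of the same pathway, in lists that hold none of the 39, also had medians below 0. Of 149 listed, 146 were tested, and 111 of these had a fold change below 0, with a median of −0.098. Of all genes tested, 49.7% had a fold change below 0. On all 3 dates 43 were lower (29.5%), against 14.4% of all genes, and 11 were higher (7.53%), against 15.6%. In 9 of the 146 (6.16%) every mimic library lay below every control library, against 3.84% of all genes. In 3 (2.05%) every mimic library lay above, against 4.22%. By list the medians were −0.10 for signal recognition and other translocation (22 genes), −0.11 for other glycosylation genes (28), −0.126 for other folding genes (33), −0.086 for other degradation genes (28) and −0.082 for other export genes (35). Without adjustment 1 was lower and 1 higher at a p under 0.05 (0.685% each), against 1.26% and 1.74% of all genes. With the date as a block 7 of the 146 were lower and 2 higher, beside 443 and 490 of all 16233 genes. None of the 146 passed in edgeR over all genes with the filter on low counts.

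Without the block the lower one was DOLK, the kinase that makes the lipid carrier of the sugar tree. Its means were 33.4 ± 2.08 CPM in mimic and 43.1 ± 4.06 CPM in control libraries (log2 fold change −0.37). Its groups did not overlap. The higher one was CANX, calnexin, the membrane chaperone that holds newly glycosylated proteins, at 755 ± 163 CPM against 429 ± 46.8 CPM (log2 fold change 0.82, edgeR adjusted p = 0.999). It was higher with the mimic on each date, and DESeq2 gave it an adjusted p of 0.0152, or 6.66e-05 with the date as a block. In edgeR its adjusted p was 0.00432 without the filter on low counts and 0.38 to 1.0 under the other alternatives. CANX stood on the other side of 0 from the 6 folding members. MLEC, malectin, which binds glucosylated sugars, stood at 0.32. The other genes with the lowest p in their lists were lower with the mimic: EMC4 (−0.33), ASNA1 (−0.28), DNAJB11 (−0.28), UBE2J2 (−0.23), AUP1 (−0.21), SEC23A (−0.23) and KDELR3 (−0.32).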

How the data were processed

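The authors deposited raw counts per gene for 6 libraries in 1 table. Per the submitters' processing notes, the tools were STAR 2.5, HTSeq 0.6.1 and DESeq2, with the build hg19. The strand setting is not given in the sources used here. Groups and dates were read from the sample titles. The test was the edgeR (4.0.16) quasi-likelihood F test on the deposited counts, run in R (4.3.3) with TMM scaling, the default filterByExpr and no block. Benjamini-Hochberg adjustment covered the 16233 genes tested, with a threshold of 0.05. Levels are TMM-normalised CPM, with a prior count of 2 in the ratios of single dates. Alternatives used DESeq2 1.42.0, limma 3.58.1 (voom), RLE normalization, no filter, the date as a replicate block, removal of a loess trend with gene length, and leaving out a library or a date. The code was tested on simulated data.

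The labels pair the libraries by date, and deviations of the libraries of a date correlated at 0.0466, 0.154 and 0.513. Common dispersion was 0.0292, a coefficient of variation of 17.1%. The members and lists were chosen with earlier results of these data known. Values are printed for members with an unadjusted p under 0.05 with or without the block, and for the lowest p and the highest level per kilobase in each step. Summaries were made with pandas 2.3.3 in Python 3.11.15 and plots with matplotlib 3.10.9. The levels of 1 marker gene are not reported here.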

Additional observations from a re-analysis of the deposited data

Results flagged for a closer look

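The 3 signal peptidase genes, SPCS1, SPCS2 and SPCS3, had opposite directions on different dates. Their median log2 ratio of mimic to control was −0.59 on 22 August, 0.16 on 5 September and −0.12 on 18 September. All 3 genes had a ratio above 0 on 5 September and below 0 on the other dates. These signs were not particular to signal peptidase. The translocon medians were −0.31, 0.05 and −0.15, and those of signal recognition and other translocation −0.40, 0.04 and −0.12. Over all genes under 1500 bases they were −0.25, 0.10 and −0.07. The medians of oligosaccharyltransferase, folding and cargo export lay below 0 on each date. The difference between dates was not tested, since each date has 1 library per group. After the trend with gene length was removed the medians were −0.373, 0.116 and −0.060.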

How the results depend on the processing

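Of the members, 0 were called with the mimic under any alternative, while the genes called in all were 5 with DESeq2, 11 with DESeq2 and the replicate block and 20 without the filter. With the replicate block 7 members had an unadjusted p under 0.05 and were lower, against 6 without it. Leaving out 1 library gave 2 to 9, with 2 without the mimic library of 5 September (SEC61B, RCN1, beside 0.765% of all genes) or the control library of 22 August (DDOST, LMAN2, 0.542%), and 9 without the control library of 5 September (3.68%). LMAN2 and DDOST had such a p in 15 of 16 alternatives each, RCN1 in 14, SSR2 in 13, OS9 in 11, SEC61B in 10, and RPN2 and PDIA4 in 3 each. The alternatives reuse the same libraries, and these members were named for a low p, so the counts are not separate support. Between dates 1 member was called with DESeq2 (HSP90B1, beside 1.12% of all genes), 3 without the filter (HSP90B1, OS9, KDELR1, 2.01%) and 0 to 13 with 1 library left out. These were 13 without the control library of 22 August (25.5%), 5 without that of 5 September (2.92%), and 4 without the mimic library of 22 August (16.8%) or of 5 September (4.7%).
Medians moved as follows, with the lowest and highest value when 1 library was left out. Over the 39 they were −0.188 (control of 5 September) and −0.0552 (control of 22 August). The translocon gave −0.192 and −0.0294 without the same libraries, and −0.0456 and −0.221 without both libraries of 22 August or of 5 September. Signal peptidase turned to 0.0325 without both libraries of 22 August and was −0.338 without both of 5 September, with −0.338 (control of 5 September) and −0.0424 (mimic of 22 August). Oligosaccharyltransferase was −0.0918 without both libraries of 18 September, with −0.301 (control of 5 September) and −0.0913 (control of 18 September). Folding was −0.211 with length removed and −0.192 without 5 September, with −0.384 (mimic of 22 August) and −0.111 (control of 22 August). Degradation was 0.0491 with length removed and −0.00679, 0.057 and 0.0613 without each date in order, with −0.0103 (mimic of 22 August) and 0.106 (control of 18 September). Cargo export was −0.153 without 22 August and −0.0671 without 18 September, with −0.208 (mimic of 22 August) and −0.0473 (mimic of 18 September).
Of 784 values for 49 genes, 39 in 13 genes changed sign, in genes with fold changes of −0.18 to 0.21. No change of scaling did so. With the replicate block SEC61G was −0.0131, and with DESeq2 and the block −0.0252. With length removed SEC63 was −0.0762, STT3B −0.0102 and KDELR1 0.0522. Without the filter TMED2 was −0.000946. Without 22 August SSR3 was 0.0396, SPCS2 0.0897, SPCS3 0.0325, HSP90B1 0.0476, ERO1L 0.0494, SYVN1 −0.094 and LMAN1 0.0562. Without 5 September SEC61G was −0.596, SEC63 −0.0661, KDELR1 0.0104 and TMED2 −0.117, and without 18 September STT3A was 0.0207 and ERO1L 0.000258. With 1 library left out the ranges were −0.363 to 0.279 (SEC61G), −0.0568 to 0.106 (SEC63), −0.188 to 0.00104 (SSR3), −0.126 to 0.0543 (SPCS3), −0.2 to 0.0673 (STT3A), −0.0565 to 0.0915 (STT3B), −0.254 to 0.171 (HSP90B1), −0.0816 to 0.0421 (ERO1L), −0.111 to 0.393 (SYVN1), −0.288 to 0.131 (KDELR1), −0.109 to 0.0488 (LMAN1) and −0.121 to 0.0755 (TMED2). The cause was not tested. With 3 libraries per group the median standard error of a member was 0.151, so differences of that size could not be told from the spread.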
